A study of Equus caballus with 28 samples.

Results

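Plasma miRNAs were compared between horses with severe OA and horses with mild OA of the distal interphalangeal joint, a joint of the lower limb. The plasma libraries were chosen by the biofluid given in their labels, and they made up 11 of the 28 libraries of the series. The label for disease state placed 8 of them in the severe OA group, which it names moderate-severe, and 3 in the mild OA group. Each library came from 1 horse, and a synovial fluid library of the same horse was found for all 11 by breed, sex, age and disease state. The mild OA group held 2 females and 1 male, named M1 to M3, aged 5 years and 2 months to 10 years and 9 months. The severe OA group held 3 females and 5 males, named S1 to S8, aged 7 years and 8 months to 34 years and 4 months. The labels give a different breed for each horse and no treatment. OA in these horses was naturally occurring and was graded on cartilage of the joint, and no group of horses with healthy joints was included. The labels name chondrocytes as the cell type of the plasma samples, which does not describe a fluid without cartilage cells, and the libraries were treated as plasma.

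miRNAs are short RNAs that bind to matching sites in messenger RNAs and lower their translation or stability. In plasma they are carried in vesicles and protein complexes that protect them from degradation, and most are known to be released by red blood cells, platelets, white blood cells and the lining of blood vessels, with smaller amounts from organs such as liver and muscle. A plasma level therefore reflects many tissues, and fewer releasing cells cannot be told apart from less RNA released per cell.

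Sequencing of plasma gave 3591154 to 6277199 reads per library, and 934841 to 4623631 of them were assigned to horse miRNAs. Levels are given as RPM, the share of a library's miRNA reads that a miRNA took, multiplied by 1000000. The floor was set at 3 reads per library, which was 0.649 to 3.21 RPM and covers counting error only. The severe OA group had a log2 number of miRNA reads of 20.96 ± 0.69 (SD, n = 8) and the mild OA group of 21.31 ± 0.20 (SD, n = 3), which differed by -0.35 (2-sided exact permutation test, p = 0.4). At least 1 read was found for 298 ± 16.4 miRNAs (SD, n = 8) in severe OA and for 299 ± 5.20 (SD, n = 3) in mild OA (exact permutation test, 2-sided, p = 1). With 8 and 3 libraries this test cannot give a p under 0.0121. Over the 11 libraries 382 of the 690 listed miRNAs had a read, 212 had a read in every library and 32 were found in 1 library only. Of the 382, 326 were also found in the synovial fluid of the same horses.

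The libraries of M1 and S6 stood apart from the others. miR-451, the most abundant miRNA of red blood cells, took 575960 RPM in M1 and 601842 RPM in S6, while it lay between 126252 and 355256 RPM in the other 9 libraries. The 4 red-cell miRNAs together, miR-451, miR-486-5p, miR-486-3p and miR-144, reached 735395 RPM in M1 and 755911 RPM in S6, and between 228237 and 451457 RPM in the others. TMM normalisation is a scaling that corrects for the make-up of a library, and 113 miRNAs averaged 100 TMM CPM or more. Of these S6 had the lowest RPM of the severe OA group for 92. M1 had the lowest RPM of the mild OA group for 84 of the 113. The TMM factors were 0.680 in M1 and 0.258 in S6, and between 0.892 and 1.675 elsewhere. These factors enter the fold changes and their tests but not the RPM, so overlap between horses given in RPM is on another scale. M1 and S6 belonged to different groups, and each fold change below is given with and without both where that changes its sign or its test.

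No miRNA passed the FDR threshold between severe and mild OA in plasma. With 3 mild OA horses this does not show that the levels were equal. An FDR under 0.1 was reached by 0 of 382 miRNAs (0%) in edgeR's quasi-likelihood test, and the smallest FDR was 0.717. At an unadjusted p under 0.05 there were 15 miRNAs (3.93%) with a higher level in severe OA and 4 (1.05%) with a lower level, and DESeq2 also gave 15 and 4 at that threshold with 0 at the FDR threshold. The 4 with a lower level had a mean of at most 0.299 RPM, and 4 of the 15 with a higher level, miR-29a, miR-122, miR-142-3p and miR-223, were abundant. Among the 113 abundant miRNAs the RPM of all severe OA horses lay above that of all mild OA horses for 0 (0%) and below it for 0 (0%). This count is on RPM without TMM factors, where S6 was the lowest of its group for 92 of the 113. It does not describe overlap on the TMM scale of the fold changes. The median size of the log2 fold changes of the 113 was 0.33, smaller than their median standard error (SE) of 0.59, and 93 of the 113 had a log2 fold change between -1 and 1. The median log2 fold change itself was 0.27 and -0.003 without M1 and S6.

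The red-cell miRNAs miR-451 and miR-486-5p were the most abundant miRNAs in plasma. miR-451 lies beside miR-144 in the horse genome, within 2000 bases in the RefSeq annotation of assembly TB-T2T, and both are known to be made in large amounts as red blood cells mature. The level of miR-451 was 575960 RPM in M1, 355256 RPM in M2 and 126252 RPM in M3. In severe OA its lowest level was 142913 RPM, the median 196377 RPM and the highest 601842 RPM. Only S6 lay above all mild OA horses, and the mild OA mean of 352490 ± 224867 RPM (SD, n = 3) exceeded the severe OA mean of 247122 ± 148939 RPM (SD, n = 8) by less than either SD. For miR-451 the log2 fold change was -0.013, with a 95% confidence interval from -2.04 to 2.02 (edgeR, p = 0.989), and -0.55 without M1 and S6. Without S6 alone the log2 fold change of miR-451 was -1.60, with an FDR of 0.0911 among the 27 miRNAs that independent filtering then kept, and an FDR of 0.644 among all.

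miR-486-5p had 154530, 82060 and 201935 RPM in M1, M2 and M3. In severe OA it lay between 53215 and 175674 RPM with a median of 87619 RPM. The groups overlapped, with 2 of 8 severe OA horses below all mild OA horses, and the log2 fold change was -0.19 (SE 0.77, edgeR p = 0.806). Its partner strand miR-486-3p was far less abundant but less variable, with 722, 465 and 398 RPM in M1, M2 and M3 and between 203 and 492 RPM in severe OA, where the median was 271 RPM. S5 was the only severe OA horse that did not lie below all mild OA horses. The log2 fold change of miR-486-3p was -1.02, with a 95% confidence interval from -2.13 to 0.09 (edgeR, unadjusted p = 0.0691, FDR 0.717), and an exact permutation test on log2 RPM gave a p of 0.0364, or 0.401 after adjustment over the 26 miRNAs tested in this way. For miR-144 the values were 4183, 2466 and 996 RPM in mild OA and between 1395 and 4826 RPM in severe OA. This gave a log2 fold change of 0.09 (SE 0.78), and this sign turned with RLE size factors (-0.19) and with library size alone (-0.018).

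The other 8 of the 10 most abundant miRNAs had log2 fold changes between -0.37 and 0.67. miR-21, which many cell types make and which is plentiful in platelets, had 9876, 73171 and 78045 RPM in M1, M2 and M3. Its lowest level in severe OA was 9261 RPM in S6, the median 95815 RPM and the highest 124749 RPM. M1 and S6 were far below the rest of their groups, and the remaining horses overlapped less, with 5 of 8 severe OA horses above all mild OA horses. The log2 fold change was 0.41 (95% confidence interval -0.72 to 1.53) and was -0.012 without M1 and S6. miR-191a, another miRNA of platelets and white blood cells, had a log2 fold change of 0.25 (SE 0.45), which was -0.18 without M1 and S6.

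miR-16, a miRNA of red blood cells and other cells that holds back cell division, varied least in RPM among the 10 most abundant. It had 31528, 36022 and 27364 RPM in mild OA and between 31045 and 46660 RPM in severe OA, with a median of 36257 RPM. The groups overlapped although 4 of 8 severe OA horses exceeded all mild OA horses, and the log2 fold change was 0.30 (SE 0.58) and -0.0062 without M1 and S6. miR-25 and miR-93 belong to one cluster in an intron of MCM7 and share their seed with miR-92a and with miR-17, respectively. miR-25 had 36682, 26360 and 122410 RPM in mild OA, where M3 was the highest of all 11 horses, and 25890 to 70104 RPM in severe OA. This gave a log2 fold change of -0.21 (95% confidence interval -1.58 to 1.16), and without M3 it was 0.51. For miR-93 the log2 fold change was 0.17 (SE 0.50) and -0.21 without M1 and S6.

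miR-92a and miR-19b come from the miR-17 to miR-92 cluster, which is known to promote cell growth and survival. miR-92a had 18237, 24314 and 59576 RPM in M1, M2 and M3. In severe OA it lay between 17089 and 44846 RPM with a median of 21774 RPM, and no severe OA horse lay above all mild OA horses. For miR-92a this gave a log2 fold change of -0.37, with a 95% confidence interval from -1.53 to 0.78 (edgeR, p = 0.503). Without M1 and S6 it was -1.01 (SE 0.40, unadjusted p = 0.0274), and 0.13 without M3, whose value was the highest of the 11. miR-19b had a log2 fold change of 0.67 (SE 0.46), with 5 of 8 severe OA horses above all mild OA horses. miR-221, which is made by the cells lining blood vessels and by blood cells, had a log2 fold change of -0.08 (SE 0.59) and lay at 2517 RPM in M1 and 2445 RPM in S6 against 6603 to 36849 RPM in the other horses.

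**Figure D1:**
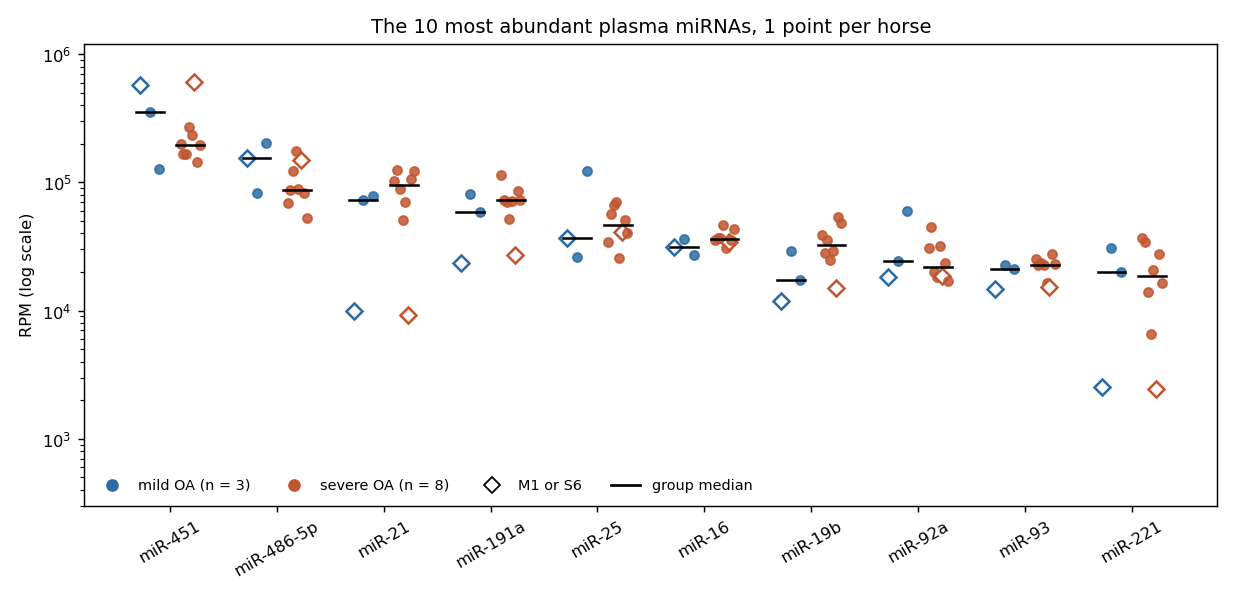
RPM on a log axis of the 10 miRNAs with the highest mean in plasma, with 1 point per horse, mild OA in blue (n = 3), severe OA in orange (n = 8), M1 and S6 as open diamonds and group medians as black lines. The groups overlap for all 10, and M1 and S6 lie above the other horses for miR-451 and far below them for miR-21 and miR-221.

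The smallest unadjusted p-value among the abundant miRNAs belonged to miR-29a. The miR-29 family is known to lower the production of collagens and other matrix proteins, and miR-29a and miR-29b lie within 2000 bases of each other in the RefSeq annotation. miR-29a had 1943, 1602 and 2659 RPM in M1, M2 and M3. In severe OA the lowest level was 854 RPM, in S6, the median 8162 RPM and the highest 16574 RPM. In RPM, all severe OA horses but S6 lay above all mild OA horses, the next lowest of them at 4524 RPM. These RPM carry no TMM factor, which was 0.258 in S6, so the place of S6 can differ on the scale of the fold change. How many of the abundant miRNAs had all severe OA horses but S6 above the mild OA horses was not counted. The pattern is therefore not shown to be particular to miR-29a or to the miRNAs below that share it. miR-29a had the log2 fold change 1.66, with a 95% confidence interval from 0.52 to 2.80 (edgeR, unadjusted p = 0.00716, FDR 0.717). Without M1 and S6 it was 1.91 (edgeR, unadjusted p = 0.00523), and without S6 alone it was 1.504. In the fit without S6 its FDR was 0.0941 among the 27 miRNAs that independent filtering kept, and 0.687 among all.

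miR-29b followed the same horses at a lower level. It had 153, 236 and 208 RPM in mild OA and 80.7 to 788 RPM in severe OA, with a median of 465 RPM. In RPM, S6 was again below the mild OA horses and the other 7 above them. The log2 fold change of miR-29b, on the TMM scale, was 0.96 (95% confidence interval -0.03 to 1.94, edgeR unadjusted p = 0.0555). miR-29c, the remaining member, overlapped more between the groups, with 2209, 6742 and 3011 RPM in mild OA and 1408 to 8241 RPM in severe OA. This gave a log2 fold change of 0.38 (edgeR, p = 0.372). The 3 miRNAs are close in sequence and could have shared reads.

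miR-223 and miR-142-3p also had an unadjusted p under 0.05. miR-223, a miRNA of neutrophils and other myeloid cells that is also carried by platelets, had 1219, 7064 and 5870 RPM in M1, M2 and M3. Its levels in severe OA spread from 1199.9 RPM in S6 to 49034 RPM in S4, with a median of 13289.6 RPM. S3, S4, S7 and S8 stood at 18120 RPM or more, while S1, S2 and S5 lay between 6186 and 8459 RPM, close to M2 and M3. Its log2 fold change was 1.87 (95% confidence interval 0.08 to 3.67, edgeR unadjusted p = 0.042), and 1.61 without M1 and S6 (unadjusted p = 0.112). miR-142-3p, which is specific to cells of the blood-forming lineage, had 51.9, 231 and 168 RPM in mild OA and 37.0 to 732 RPM in severe OA, with a median of 525 RPM. S6 lay below the mild OA horses and 6 of 8 lay above them. Its log2 fold change was 1.36 (95% confidence interval 0.06 to 2.67, edgeR unadjusted p = 0.0419), and 1.12 without M1 and S6 (unadjusted p = 0.0905).

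miR-146b-5p, a brake on inflammatory signalling, had 11.05, 38.5 and 82.8 RPM in mild OA and 6.70 to 302 RPM in severe OA. This gave a log2 fold change of 1.48 (95% confidence interval -0.27 to 3.22), with 5 of 8 severe OA horses above all mild OA horses. miR-31 spread over a wide range in both groups, with 7.03, 10.4 and 76.2 RPM in mild OA and 4.54 to 460 RPM in severe OA, and a log2 fold change of 2.18 (95% confidence interval -0.05 to 4.40). let-7g, a member of the let-7 family that restrains growth-promoting genes, had 704, 1639 and 1567 RPM in mild OA and 687 to 4069 RPM in severe OA, with a median of 2769 RPM. In RPM, S6 lay just below M1 and the other 7 severe OA horses lay above all mild OA horses. The log2 fold change of let-7g, on the TMM scale, was 0.73 (95% confidence interval -0.14 to 1.59).

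For miR-122 and miR-193b the highest level by far was that of S5. miR-122, which is made almost entirely by liver cells, had 20.8, 8.09 and 14.1 RPM in mild OA. In severe OA it ran from 2.27 RPM in S7 to 5399 RPM in S5, with a median of 38.9 RPM. S7 and S3 lay below the mild OA horses, 5 of 8 lay above them, and S5 stood far above all others, and the log2 fold change of 5.07 had a 95% confidence interval from 0.47 to 9.67 (edgeR, unadjusted p = 0.0329). Without M1 and S6 it was 5.60 (unadjusted p = 0.0930), without S5 it was 3.19, and with age as a covariate it was -0.24. miR-193b had 80.0, 27.7 and 21.6 RPM in mild OA, 2407 RPM in S5 and 34.1 to 201 RPM in the other severe OA horses. Its log2 fold change was 2.54 (95% confidence interval -0.28 to 5.37), and 1.24 without S5.

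**Figure D2:**
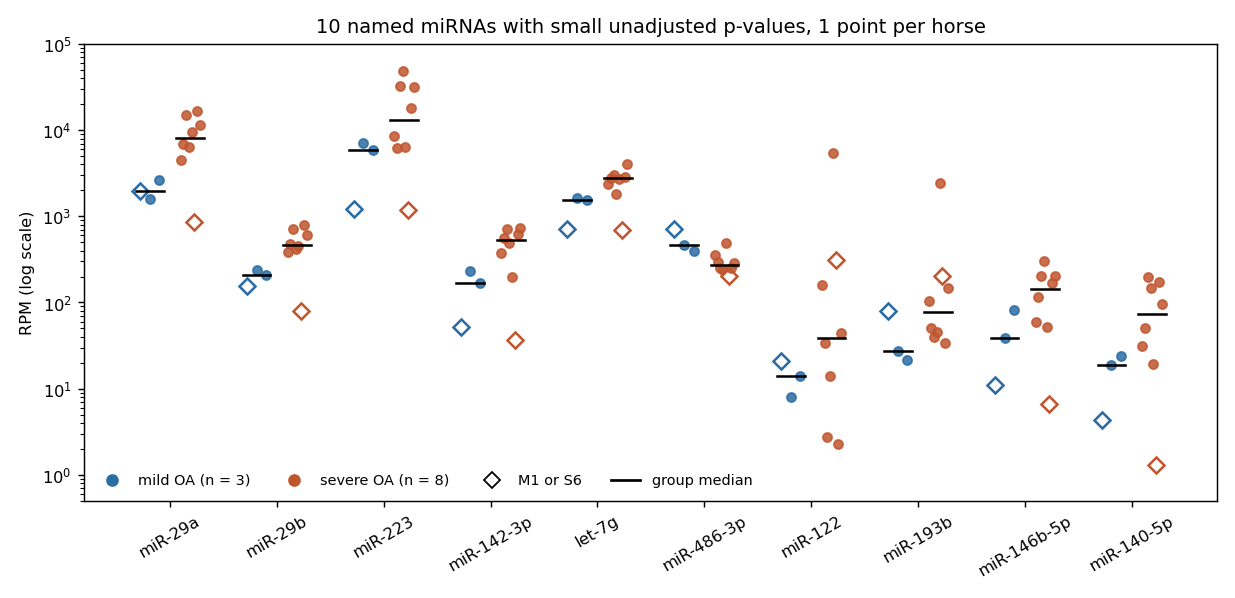
RPM on a log axis of 10 named miRNAs with small unadjusted p-values, with 1 point per horse, mild OA in blue (n = 3), severe OA in orange (n = 8), M1 and S6 as open diamonds and group medians as black lines. All severe OA horses but S6 lie above the mild OA horses for miR-29a, miR-29b and let-7g, and S5 stands alone at 5399 RPM for miR-122 and 2407 RPM for miR-193b.

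**Figure D3:**
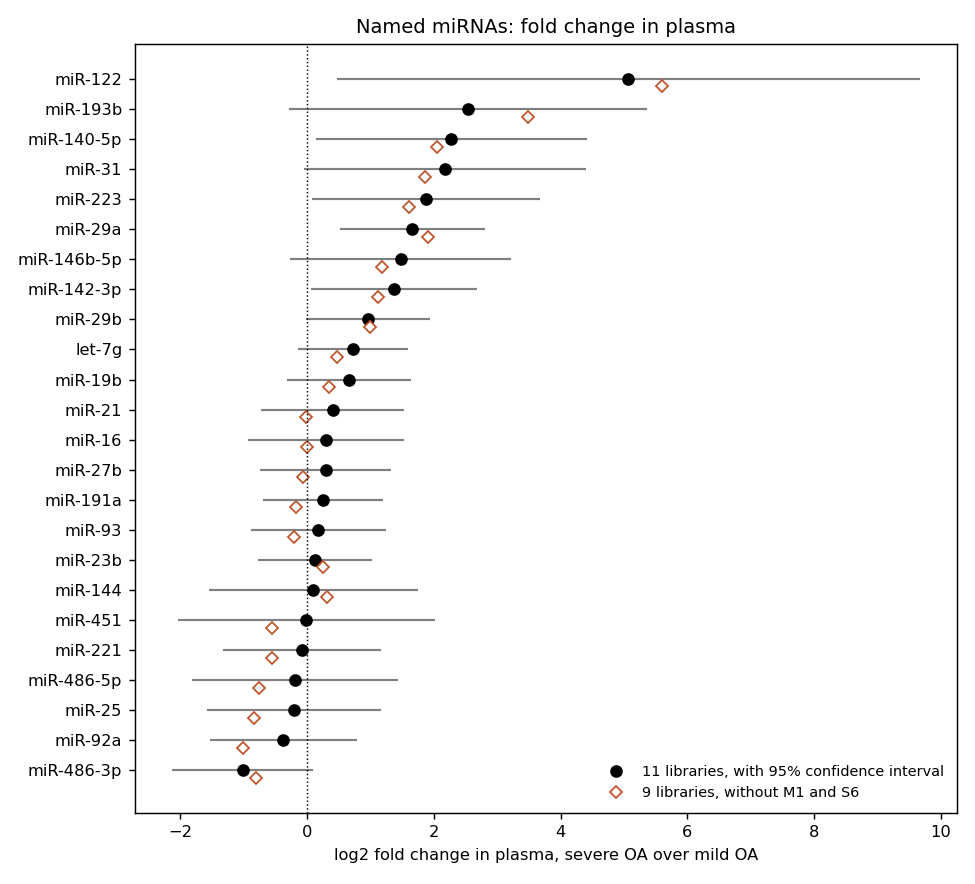
Log2 fold change in plasma of severe OA over mild OA for the 24 named miRNAs that averaged 50 RPM or more, as black points with 95% confidence intervals (11 libraries) and open diamonds for the fit without M1 and S6 (9 libraries). The intervals of miR-122, miR-140-5p, miR-223, miR-29a and miR-142-3p lie above 0 before adjustment, and leaving out M1 and S6 moved miR-92a from -0.37 to -1.01 and miR-21 from 0.41 to -0.012.

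Families and clusters were described by the number of their members on each side of 0, beside a median log2 fold change of 0.27 over all 382 miRNAs, of which 240 lay above 0 and 142 below. In the miR-29 family 3 of 3 members lay above 0 with a median of 0.96, and 1 of 3 had an unadjusted p under 0.05 in that direction. Without M1 and S6 the median was 0.996. The let-7 family had 7 of 7 members above 0 and a median of 1.08, or 0.73 over its 5 abundant members. In this family 0 members had an unadjusted p under 0.05, and sharing of reads between members was not tested. Its most abundant member, let-7f, lay at 359, 903 and 3103 RPM in mild OA and at 408 to 9411 RPM in severe OA, a log2 fold change of 1.15 (SE 0.70). miR-98 had a log2 fold change of 0.25, or -0.19 without M1 and S6, where the family had 6 of 7 members above 0 and a median of 0.61.

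The miR-23, miR-27 and miR-24 clusters, known for roles in blood vessels and blood cells, had 5 of 5 members above 0 with a median of 0.29. The log2 fold change, on the TMM scale, was 0.94 (SE 0.54) for miR-27a and 0.92 (SE 0.56) for miR-24. In RPM, each had 7 of 8 severe OA horses above all mild OA horses, with S6 below. For miR-23a the log2 fold change was 0.10, for miR-23b 0.12 and for miR-27b 0.29. Without M1 and S6 miR-27b turned to -0.065, which left 4 of 5 members above 0. Reads of miR-23a and miR-23b, and of miR-27a and miR-27b, could have been shared, since each pair is nearly identical in sequence and the authors allowed 1 mismatch. All 4 members of the miR-30 family lay at or above 0, with a median of 0.41, which was 0.03 without M1 and S6. miR-30d had the highest level of the family and a log2 fold change of 0.27, with miR-30e at 0.54 and miR-30c at 0.001. miR-30d turned to -0.19 and miR-30c to -0.18 without M1 and S6.

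The miR-17 to miR-92 cluster had 5 of 6 members above 0 with a median of 0.42, miR-92a being the exception. miR-19a, with a log2 fold change of 0.61 (SE 0.48), had a level of 4515, 9661 and 5264 RPM in mild OA and 5617 to 15024 RPM in severe OA. The median of this cluster was 0.08 without M1 and S6. The miR-106b to miR-25 cluster had 2 of 3 members above 0 with a median of 0.17, which was -0.21 without M1 and S6, and miR-106b had a log2 fold change of 0.43. In the miR-15/16 family, 4 of 5 members lay above 0 with a median of 0.30, and miR-15a and miR-15b each had a log2 fold change of 0.33. None of the members of these 3 groups had an unadjusted p under 0.05.

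The group of miR-10, miR-99, miR-100 and miR-125, which lies partly within the HOX gene clusters, had 5 of 7 members above 0 with a median of 1.10. S5 had the highest level of miR-99a (9094 RPM, against 354 to 606 RPM in mild OA and 180 to 2234 RPM in the other severe OA horses) and of miR-100 (1341 RPM). The log2 fold changes were 1.36 for miR-99a, 1.10 for miR-100 and -0.11 for miR-10a. In the same order they were 0.42, 0.41 and -0.43 without S5, and -0.87, -0.09 and -0.07 with age as a covariate. In the cluster of miR-221 and miR-222 both members lay below 0, with -0.08 for miR-221 and -0.04 for miR-222. The miR-200 family, made by epithelial cells, had 5 of 5 members below 0 with a median of -0.44, and 1 of 5 below 0 without M1 and S6. miR-200a lay at 798 RPM in S5 against 8.43 to 187 RPM in the other horses. The log2 fold changes of miR-200a, miR-429 and miR-141 were -0.44, -0.64 and -0.10, and all 3 turned without M1 and S6, to 0.48, 0.13 and 0.72. In the DLK1-DIO3 region, a large imprinted cluster, 17 of 22 members lay below 0 with a median of -0.62, but 11 of 22 did so without M1 and S6. Its 3 most abundant members were low, with mean levels of 36.0 RPM for miR-487b, 16.8 RPM for miR-369-3p and 9.31 RPM for miR-376c, and log2 fold changes of -0.37, 0.09 and -0.56. miR-487b turned to 0.22 and miR-376c to 0.055 without M1 and S6.

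The cell and tissue lists were compared in the same way, and their part in the results above was not tested. The red-cell list had 3 of 4 members below 0 with a median of -0.10, which was -0.65 without M1 and S6. The platelet list had 4 of 7 members above 0 with a median of 0.25, and 2 of 7 with a median of -0.007 without M1 and S6. Its summed level ran from 36303 to 169165 RPM in mild OA and from 38410.1 to 242551 RPM in severe OA, where the lowest was S6. The white-cell list had 5 of 8 members above 0 with a median of 0.83 (0.61 without M1 and S6) and a summed level of 5321 to 33948 RPM in mild OA and 3238 to 62742 RPM in severe OA. miR-142-5p, with 2175, 2757 and 5814 RPM in mild OA and 1761 to 20096 RPM in severe OA, had a log2 fold change of 1.09 (SE 0.67). miR-150, a miRNA of lymphocytes, spread from 522 to 8819 RPM in mild OA and from 374 to 19029 RPM in severe OA, with a log2 fold change of 1.06 (SE 0.89), and miR-342-3p had a log2 fold change of -0.24.

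The liver list had 3 of 4 members above 0 and a median of 1.77, or 4 of 4 and 2.36 without M1 and S6. S5 held its highest level, with a summed level of 31786 RPM against 1133 to 5156 RPM in the other severe OA horses and 1371 to 5478 RPM in mild OA. miR-192, the most abundant of that list, had 26315 RPM in S5 and a log2 fold change of -0.15 over the groups (0.56 without M1 and S6). miR-194 had 32.1 RPM in S5 and a log2 fold change of 0.48, and miR-885-5p had 40.6 RPM in S5 and at most 1.30 RPM elsewhere. Without S5 the log2 fold change was -1.15 for miR-192 and -0.33 for miR-194, and miR-122 stayed above 0 (3.19). The striated muscle list had 4 of 6 detected members above 0 and a median of 0.78, or 6 of 6 and 2.68 without M1 and S6. Its level was highest in S8, with a summed level of 1073 RPM against 2.74 to 145 RPM in the other 10 horses. miR-133a reached 983 RPM in S8 and had a log2 fold change of 1.13 (SE 1.53), and miR-499-5p had a log2 fold change of 0.42. Without S8 these were -1.06 for miR-133a and 0.11 for miR-499-5p, and miR-1 stayed above 0 (4.35). DESeq2, with all horses, gave -1.19 for miR-133a. miR-1, the muscle miRNA, had 0 reads in all 3 mild OA libraries and a read in all 8 severe OA libraries. Its reads came to 107 in severe OA, 90 of them in S8, and the other 7 libraries held between 1 and 4 reads, around the floor of 3 reads. miR-206 was found in S8 only and miR-208a in no library.

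For the cartilage and joint tissue list 4 of 8 detected members lay above 0 and 4 below, with a median of 0.013, which was 0.40 without M1 and S6. miR-140-3p, one strand of the cartilage miRNA miR-140, had 196, 139 and 226 RPM in mild OA and 90.2 to 484 RPM in severe OA, with a log2 fold change of 0.32 (SE 0.55). miR-140-5p was less abundant, with 4.35, 18.9 and 23.8 RPM in mild OA and 1.30 to 197 RPM in severe OA, where the median was 73.7 RPM. S6 was below the mild OA horses, S5 among them and the other 6 above, and the log2 fold change was 2.28 (95% confidence interval 0.14 to 4.41, edgeR unadjusted p = 0.0378), or 2.05 without M1 and S6 (unadjusted p = 0.0704). miR-143 and miR-145, a pair of neighbours made by smooth muscle and connective tissue, peaked in S8 at 16950 RPM and 6162 RPM. The mild OA horses had 189 to 415 RPM of miR-143 and 97.8 to 1683 RPM of miR-145. Their log2 fold changes were 2.14 (SE 1.57) and -0.28 (SE 1.06), and that of miR-145 turned to 1.22 without M1 and S6. S8 held 32456 of the 35794 reads of miR-143 in severe OA. Without S8 the log2 fold change was -0.96 for miR-143 and -1.50 for miR-145. DESeq2, with all horses, gave -0.99 for miR-143 and -0.66 for miR-145. The 6 miRNAs that the study names for synovial fluid, which overlap the lists above, had 4 members above 0 and 2 below, with a median of 0.21, which was -0.035 without M1 and S6.

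**Figure D4:**
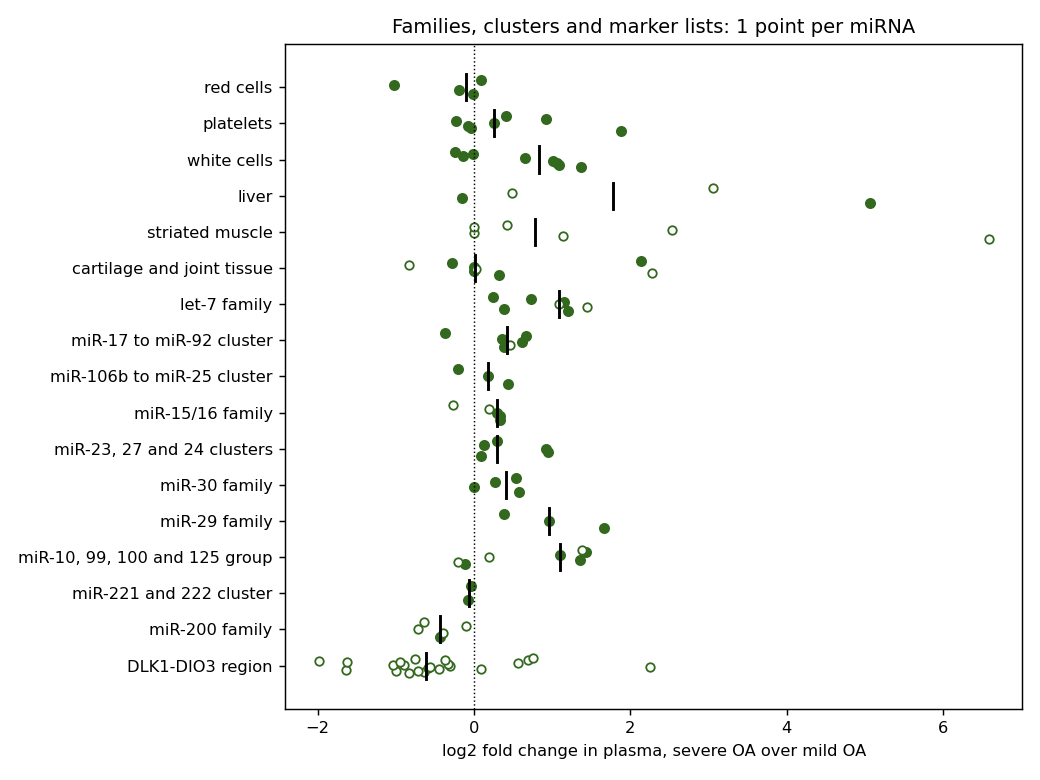
Log2 fold change in plasma of severe OA over mild OA for each detected member of 17 families, clusters and marker lists, filled where the mean reached 100 TMM CPM and open below that, with the list median as a black line. The let-7, miR-29 and miR-23, miR-27 and miR-24 lists have all members above 0 and the miR-200 family has all below 0 in the fit with M1 and S6.

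Age and the spike-in reads differed between the groups as well. The severe OA horses were aged 21.2 ± 8.60 years (SD, n = 8) and the mild OA horses 8.64 ± 3.03 years (SD, n = 3), a difference of 12.5 years (exact permutation test, 2-sided, p = 0.0485). S3 was the only severe OA horse within the age range of the mild OA group, so that age and severity cannot be told apart. With age as a covariate 9 of the 197 miRNAs kept by independent filtering, out of 382 fitted, had an FDR under 0.1, all higher in severe OA. They were miR-223 (log2 fold change 3.11, FDR 0.0627), miR-29a (2.29, FDR 0.0627), miR-676, miR-9097, miR-582-3p, miR-340-5p, miR-142-5p, miR-140-5p and miR-345-5p. The filter kept the cutoff with the most calls. An FDR over all 382 miRNAs is not given for this fit, so these calls can depend on the filter. Within the severe OA group, log2 RPM of miR-223 was lower in older horses, with Spearman's rho = -0.833 (exact permutation p = 0.0154, adjusted 0.40 over 26 miRNAs) and Pearson's r = -0.703 (exact permutation p = 0.0517, adjusted 0.522). With S2 and S3 left out, whose ages lay farthest from the median, r was -0.771.

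Between 1.86 and 52.0 spike-in reads were counted per 1000 miRNA reads in the severe OA libraries, with S5 the highest and the other 7 at 10.8 or less, and between 10.3 and 43.7 in the mild OA libraries. As log2 values these were 2.45 ± 1.58 (SD, n = 8) for severe OA and 4.55 ± 1.07 (SD, n = 3) for mild OA (exact permutation test, 2-sided, p = 0.0970). Scaling the libraries by the spike-in reads in place of TMM turned the comparison into one where 186 of 337 miRNAs kept by the filter had an FDR under 0.1 in edgeR, 186 higher and 0 lower, with a median log2 fold change of 2.65 over the abundant miRNAs. Relative to that median, miR-451 (2.53), miR-21 (2.58) and miR-191a (2.54) were close to 0 and miR-29a (4.30) lay above it. The deposited files and the labels do not say whether equal amounts of spike-in and plasma were used, and the part of either was not tested.

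The direction of the plasma fold changes was then set beside that in synovial fluid of the same 11 horses. In synovial fluid 16 of 191 miRNAs (8.38%) had an FDR under 0.1 in edgeR, 14 lower and 2 higher in severe OA. These calls rested on the synovial fluid of M2, where miR-451 took 535591 RPM, and 0 were left without it, with 15 at an unadjusted p under 0.05. The TMM factor of M2 in synovial fluid was 0.219, and between 0.895 and 1.388 in the other horses. The synovial fluid fold changes and signs below include M2. Of the 14 lower miRNAs, the red-cell miRNAs miR-144, miR-451, miR-486-3p and miR-486-5p had the log2 fold changes -3.27, -2.80, -2.59 and -2.14 in synovial fluid, against 0.09, -0.013, -1.02 and -0.19 in plasma. The others with more than 1000 RPM in plasma were miR-25 (-1.61 in synovial fluid and -0.21 in plasma), miR-15a (-1.46 and 0.33), miR-19a (-1.61 and 0.61) and let-7g (-1.40 and 0.73). In plasma 5 of the 16 lay below 0 and 11 above, 7 had the same sign in both fluids, and 1, miR-140-5p, had an unadjusted p under 0.05, with the opposite sign (-1.33 in synovial fluid).

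Over the 104 miRNAs with at least 100 TMM CPM in both fluids, 50 (48.1%) had the same sign. Of these 27 were above 0 in both and 23 below 0 in both, while 44 were above 0 in plasma and below 0 in synovial fluid and 10 were the reverse. Pearson's r across these miRNAs, which are not independent replicates and share horses, was 0.345 and is given as a description. The share with the same sign was 51.9% after the median of each fluid was set to 0, 57.1% without M1 and S6, and 65.4% with library size alone. Among the miRNAs with the smallest p-values in plasma, miR-142-3p (1.36 in plasma and 1.34 in synovial fluid), miR-146b-5p (1.48 and 1.35), miR-31 (2.18 and 0.71) and miR-122 (5.07 and 0.75) had the same sign, miR-223 (1.87 and 0.15) was near 0 in synovial fluid, and miR-29a (1.66 and -0.20) and miR-29b (0.96 and -0.29) had opposite signs.

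A difference between the fluids in the effect of severity was tested by an interaction over the 22 libraries. An FDR under 0.1 was reached by 0 of 414 miRNAs (0%) in edgeR, with 21 at an unadjusted p under 0.05, and by 0 with horse as a block, with 10 at that threshold. The smallest p-values belonged to miR-449a, miR-450c and miR-140-5p. miR-449a had 7 reads in the mild OA plasma libraries and 1 in severe OA, and miR-450c had 0 and 42, so neither can be compared at this depth. miR-140-5p had an interaction of 3.15 on the log2 scale (SE 1.02, edgeR unadjusted p = 0.00404, FDR 0.558), or 2.62 with horse as a block (SE 0.96, unadjusted p = 0.00625, FDR 0.863). For let-7g it was 1.61 (SE 0.63, unadjusted p = 0.0154, FDR 0.788), or 1.38 with the block (SE 0.82, unadjusted p = 0.0919, FDR 1). Among the red-cell miRNAs the interaction was 2.64 for miR-144, 2.08 for miR-451, 0.88 for miR-486-3p and 1.28 for miR-486-5p. With horse as a block it was 0.48, -0.37, -0.64 and -0.59, in the same order. In synovial fluid miR-140-5p lay at 513, 261 and 533 RPM in M1, M2 and M3 and between 180 and 630 RPM in severe OA, with a median of 301 RPM, so the groups overlapped there too.

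**Figure D5:**
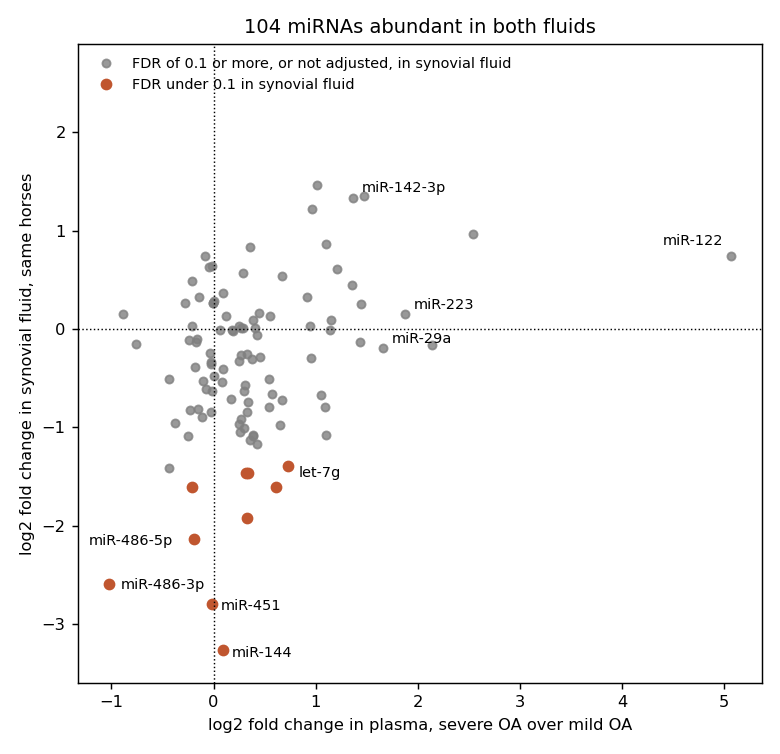
Log2 fold change of severe OA over mild OA in plasma (x axis) and in synovial fluid of the same 11 horses (y axis) for the 104 miRNAs that averaged 100 TMM CPM or more in both, in orange where the FDR was under 0.1 in synovial fluid. The orange points lie between -3.27 and -1.40 on the y axis and between -1.02 and 0.73 on the x axis, and 50 of the 104 points lie in a quadrant where both signs are the same.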

How the data were processed

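Small RNA libraries of plasma and synovial fluid were made, per the labels, from total RNA with a miRNA library kit for biofluids. The study describes its methods for synovial fluid only, and plasma files have the same layout. The authors trimmed adapters with cutadapt, dropped reads shorter than 17 nt and aligned the rest with bowtie to the horse genome (EquCab3.0), allowing 2 mismatches, and then to horse miRNAs of miRBase, allowing 1 mismatch. For each miRNA they deposited the raw count of reads, the RPM by all reads of the library, which was not used, and a score column of RPM by miRNA reads. The RPM in the text was recomputed from the counts and differed from the deposited score by at most 2.9e-11. Spike-in rows were kept out of library sizes. Reads were counted without molecular identifiers, so floors cover counting error only.

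Groups came from the disease state label, and horses were paired across fluids by breed, sex, age and disease state. Counts of miRNAs with a read in any library of a fit were analysed in R 4.3.3 with edgeR 4.0.16 (older quasi-likelihood form, TMM factors). Independent filtering tried 50 cutoffs on mean CPM up to its 0.95 quantile and kept the lowest with the most calls at a Benjamini-Hochberg FDR under 0.1. Standard errors came from the log2 fold change and its F statistic, and p-values measure the spread between horses. DESeq2 1.42.0 was an alternative. Values with 1 number per library were tested by exact permutation in Python 3.11.15 with scipy 1.17.1, log2 RPM with a pseudocount of 1. The interaction was fitted without a block. The libraries pair by animal, yet after removing group means the correlation of a horse's fluids over 104 miRNAs was between -0.242 and 0.441, and the best match was the own horse for 2 of 11.

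Named were the 10 most abundant miRNAs, the 10 with the smallest p among those with at least 100 TMM CPM, the red-cell markers, the miRNAs the study names, the 3 most abundant of each of 18 lists and the 3 with the smallest interaction p; further members of lists are named after their values were seen. The members and lists were chosen with earlier results of these data known. The fits were run on simulated counts with the same fixed spread for every miRNA and no library like M1 or S6. This checked the code and does not show what the fits can detect in these data. Gene neighbours came from RefSeq on assembly TB-T2T, a build other than that of the files, so no coordinates are given. Alternatives were other scalings, filters and tools, a covariate for age or for sex, a joint fit of the 28 libraries and each horse left out, and, added after seeing the data, M1 and S6 or the red-cell miRNAs left out and centred fold changes.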

Additional observations from a re-analysis of the deposited data

Results flagged for a closer look

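Among the 8 severe OA libraries, 29 measures were searched for a horse that lay far from the nearest of the others (Dixon's criterion, on log2(RPM + 1) for miRNAs). Chance marks about 1 in 20 groups. The criterion was met for 9 miRNAs, 7 of them through S6. These 7 come from the same library and are shares of the same reads, so they are not independent of one another. The RPM carried no TMM factor, which was 0.258 in S6, so S6 can lie nearer to the others on the TMM scale. miR-451 had 601842 RPM in S6 against at most 270718 RPM in the others. S6 lay far below the others for miR-21 (9261 RPM, the next at 50705 RPM), miR-29a (854 RPM, the next at 4524 RPM), miR-142-3p (37.0 RPM, the next at 199 RPM), miR-29b (80.7 RPM, the next at 383 RPM), let-7g (687 RPM, the next at 1805 RPM) and miR-23b (207 RPM, the next at 1007 RPM). For miR-193b S5 had 2407 RPM against at most 201 RPM in the others. Within severe OA miR-449a was found in S8 only, with 0.522 RPM, which is 1 read.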

How the results depend on the processing

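The count of 0 miRNAs with an FDR under 0.1 in plasma held in 23 of 26 alternatives, among them DESeq2, the fit without M1 and S6 and the fit without the red-cell miRNAs. It was 9 with age as a covariate, 186 with spike-in scaling and between 0 and 2 with 1 horse left out, the 2 arising without S6. For the interaction it was 0 in all 15 alternatives, and the horse block (replicate block), which gave 0, changed no call. In synovial fluid the 16 became 6 with RLE factors, 0 with age as a covariate, 0 with filterByExpr, 1 with library size alone, 9 without the red-cell miRNAs (added after seeing the data), 8 with sex as a covariate, 2 with spike-in scaling and 2 with upper-quartile factors, and lay between 0 (without M2) and 29 (without M1) with 1 horse left out, with 7 without S7 and 6 without S8. The share of miRNAs with the same sign in both fluids was 65.4% with library size alone and between 38.7% (without M2) and 58.5% (without S6) with 1 horse left out. The difference in log2 miRNA reads was 0.20 when library reads were used. The difference in detected miRNAs was 5.08 after thinning to the smallest library and between -3.63 and 2.71 with 1 horse left out.

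The 26 miRNAs named for their level, their p, the red-cell markers, the study or the interaction were followed one by one. Of these 12 kept their sign in every alternative run, and 554 of 643 values kept sign and side of the threshold. Of the 34 further miRNAs named as the most abundant of a list, 11 kept their sign in every alternative and 23 did not, among them 21 with 1 horse left out, 10 without M1 and S6, 10 with spike-in scaling and 9 with library size alone. Among the 26, signs turned with DESeq2 for miR-16 (-0.46), miR-93 (-0.059), miR-144 (-0.19) and miR-23b (-0.084), with RLE factors for miR-93 (-0.059), miR-144 (-0.19) and miR-23b (-0.084), with upper-quartile factors for miR-93 (-0.033), miR-144 (-0.22) and miR-23b (-0.11), with library size alone for miR-221 (0.17) and miR-144 (-0.018), and with filterByExpr for miR-93 (-0.023). With age as a covariate they turned for miR-191a (-0.0056), miR-93 (-0.027), miR-122 (-0.24) and miR-144 (-0.037), with sex for miR-144 (-0.40), and with all 28 libraries for miR-191a (-0.028), miR-16 (-0.040), miR-93 (-0.15), miR-144 (-0.29) and miR-23b (-0.25). With spike-in scaling they turned for miR-451 (2.53), miR-486-5p (1.82), miR-25 (1.62), miR-92a (1.30), miR-221 (2.08) and miR-486-3p (1.42). Without M1 and S6 they turned for miR-21 (-0.012), miR-191a (-0.18), miR-16 (-0.0062), miR-93 (-0.21) and miR-27b (-0.065), and without the red-cell miRNAs for miR-191a (-0.0032), miR-93 (-0.10) and miR-23b (-0.085). With 1 horse left out the log2 fold change lay between -0.78 and 0.87 for miR-144, -0.41 and 0.38 for miR-16, -0.23 and 0.57 for miR-191a, -0.32 and 0.72 for miR-21, -0.78 and 0.54 for miR-221, -0.15 and 0.34 for miR-23b, -1.02 and 0.51 for miR-25, -0.32 and 0.71 for miR-27b, -1.60 and 0.78 for miR-451, -1.08 and 0.13 for miR-92a and -0.41 and 0.20 for miR-93. The cause of these changes was not tested. With 3 mild OA horses, 1 horse can set a group's value, and miRNAs under 3 reads could not be compared.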
